A study of Homo sapiens with 9 samples.

Results

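The regions described here are stretches of open chromatin that were called in control HEK293T cells and in none of the IGF2BP1, IGF2BP2 and IGF2BP3 knockouts. They were found by pooling the 4 deposited peak lists, merging peaks that shared at least 1 bp and keeping each merged region that held a control peak and no knockout peak. Of 71597 merged regions, 1416 met this rule, which is 1.98% of all regions and 3.61% of the 39194 control peaks. Each of the 1416 consisted of a single control peak. The members were chosen by their absence from the knockout lists, so that absence is a description of the set and was not tested. By comparison, 4314 regions were held by the IGF2BP1 knockout list alone, 10897 by the IGF2BP2 knockout list alone and 3506 by the IGF2BP3 knockout list alone, while 29686 were in all 4 lists. The number of control-only regions depends on all 3 knockout lists, since leaving the IGF2BP1, IGF2BP2 or IGF2BP3 knockout list out of the rule gave 2359, 2574 or 1805 regions. It was 4569 when each knockout list was limited to its 39194 widest peaks, a limit that shortens the lists and removes their narrow peaks together.

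HEK293T is an established human embryonic kidney cell line, and accessibility was measured by ATAC-seq with the Omni-ATAC lysis and transposition conditions. The control carried a non-targeting guide and was produced in parallel with the knockouts (2 libraries, batches 2 and 3), without further treatment. For IGF2BP1 knockout cells there were 3 libraries (batches 1, 2 and 3), and the IGF2BP2 and IGF2BP3 knockouts had 2 libraries each, from batches 2 and 3. Each knockout was 1 clone grown from a sorted single cell after transient transfection with plasmids co-expressing 3 guides, so the effects of clone and genotype cannot be told apart. The deposited data are 1 list of positions per group with no heights, scores or read depth, so neither a spread between libraries nor a comparison within a batch could be had, and no difference below was tested. The control list was the shortest, with 39194 peaks, against 50917, 60262 and 44041 for the IGF2BP1, IGF2BP2 and IGF2BP3 knockout lists. How far the length of a list sets which peaks it holds alone was not tested. Of the lineage genes checked in the control list, 19 of 27 kidney developmental transcription factors, 25 of 32 neural genes and 6 of 25 blood cell markers had a peak within 1 kb of a gene end, as had 13261 of all 20050 protein-coding genes.

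ATAC-seq uses the Tn5 transposase, which inserts adapters where DNA is not covered by nucleosomes, so peaks mark active promoters, enhancers and other sites occupied by regulatory proteins. Promoters of broadly used genes tend to give strong, wide peaks that are alike in many cell types, whereas enhancers are narrower and vary more between cells. The IGF2BP proteins bind RNA in the cytoplasm, among it N6-methyladenosine-marked messages, and stabilise or localise them. They are not known as sequence-specific DNA-binding factors.

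Promoters were a minority of the control-only regions, but they are the members whose DNA can be tied to a named gene, and 6 of them show what was open in the control list alone. Each stretch below is the 250 bases before a RefSeq start site (GRCh38.p14), read on the strand of the gene. Each lay inside a control-only region and overlapped no knockout peak. The 6 were picked after the lists had been compared, for genes of known function. Capitals mark matches on either strand to the GC box (GGGCGG), the CCAAT box (CCAAT), the E-box (CACGTG) and an ETS-factor site (CCGGAAG). The stretches are CDK6 at chr7:92836574-92836823 (minus strand), FOXC1 at chr6:1609665-1609914 (plus strand), NFIX at chr19:12995225-12995474 (plus strand), MARCHF9 at chr12:57754853-57755102 (plus strand), HRH2 at chr5:175657821-175658070 (plus strand) and ZNF682 at chr19:20039256-20039505 (minus strand).
CDK6: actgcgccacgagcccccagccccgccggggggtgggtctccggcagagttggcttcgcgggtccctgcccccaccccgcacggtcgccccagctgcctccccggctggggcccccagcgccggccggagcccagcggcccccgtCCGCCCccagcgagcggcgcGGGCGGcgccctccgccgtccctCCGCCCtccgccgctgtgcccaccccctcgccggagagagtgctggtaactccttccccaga
FOXC1: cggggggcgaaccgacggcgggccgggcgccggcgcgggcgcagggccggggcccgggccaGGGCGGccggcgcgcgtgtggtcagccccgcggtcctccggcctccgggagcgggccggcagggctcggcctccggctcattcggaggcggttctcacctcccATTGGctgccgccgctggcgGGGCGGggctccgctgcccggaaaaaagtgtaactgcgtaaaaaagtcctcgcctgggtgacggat
NFIX: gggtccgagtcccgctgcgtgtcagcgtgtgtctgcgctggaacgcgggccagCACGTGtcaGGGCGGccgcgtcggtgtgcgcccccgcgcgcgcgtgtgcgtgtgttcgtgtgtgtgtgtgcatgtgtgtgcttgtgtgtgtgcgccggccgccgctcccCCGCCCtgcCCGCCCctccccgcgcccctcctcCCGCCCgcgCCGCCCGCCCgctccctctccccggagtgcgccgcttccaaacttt
MARCHF9: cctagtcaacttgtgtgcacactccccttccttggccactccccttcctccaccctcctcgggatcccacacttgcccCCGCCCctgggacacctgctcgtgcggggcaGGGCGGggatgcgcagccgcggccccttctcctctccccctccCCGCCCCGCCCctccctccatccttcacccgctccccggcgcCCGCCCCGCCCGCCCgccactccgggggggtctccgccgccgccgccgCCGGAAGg
HRH2: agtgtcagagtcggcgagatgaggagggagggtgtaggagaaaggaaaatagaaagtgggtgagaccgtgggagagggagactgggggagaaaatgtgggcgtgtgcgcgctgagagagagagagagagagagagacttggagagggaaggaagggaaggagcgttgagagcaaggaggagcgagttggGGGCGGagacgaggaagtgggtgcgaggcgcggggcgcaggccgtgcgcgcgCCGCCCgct
ZNF682: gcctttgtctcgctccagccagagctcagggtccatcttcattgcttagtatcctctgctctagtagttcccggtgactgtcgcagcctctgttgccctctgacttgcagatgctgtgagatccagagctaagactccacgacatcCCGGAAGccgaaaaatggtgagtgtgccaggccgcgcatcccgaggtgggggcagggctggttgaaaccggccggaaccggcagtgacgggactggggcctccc

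The first 5 of these stretches contained GC boxes, the G- and C-rich element bound by Sp1-family factors. CDK6 had 3 GC boxes and a G+C content of 80% over the 250 bases. MARCHF9 had 7 GC boxes with an ETS site next to the start, NFIX had 6 GC boxes and 1 E-box, and FOXC1 had 2 GC boxes and a CCAAT box. The ZNF682 stretch, upstream of a start site inside the annotated gene, held no GC box and 1 ETS site, at a G+C content of 60.4%. The nearest knockout peak lay 2083 bp from the promoter window (the printed stretch and the 50 bases after the start) at CDK6, 1419 bp at FOXC1, 1709 bp at MARCHF9, 11264 bp at NFIX, 12512 bp at ZNF682 and 38278 bp at HRH2.

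Beyond these 6, a control-only region touched 59 of the 35116 promoter windows in the RefSeq table (250 bases before to 50 after a start site), belonging to 56 genes. Their median G+C content was 65%, with quartiles of 51.5% and 71.7%, against 58.7% for all windows. Windows under a control peak found in all 3 knockout lists had a median of 66.7% (15995 windows). Those under such a shared peak from the narrow end of the control list (under 557 bp) had 59% (293 windows). The control-only windows were not limited to that width, and some lay under wider regions, so the sets are not matched for width. The observed-to-expected CpG ratio, a measure of how far CpG has been lost, had a median of 0.624 in the control-only windows, 0.706 in the narrow shared windows and 0.846 in all shared windows. Over all windows the ratio was 0.579, so the control-only promoters lay between all windows and the shared ones.

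The GC box was found in 37 of the 59 control-only windows, 62.7% (95% Wilson interval 50 to 73.9%), against 52.2% of the narrow shared windows, 73.2% of all shared windows and 45% of all windows. All Wilson intervals given here cover counting error over windows or regions only. The CCAAT box was in 39% of the control-only, 31.4% of the narrow shared, 34.5% of all shared and 34.6% of all windows. For the ETS site these shares were 10.2%, 15.4%, 18.4% and 10.3%, and for the E-box 8.47%, 8.87%, 9.71% and 7.26%. For the TATA box (TATAAA) they were 6.78% (2.67 to 16.2%), 10.2%, 4.65% and 11.5%, so the control-only windows lay between the sets. No control-only window held the AP-1 letters TGANTCA, found in 5.8% of narrow shared, 3.76% of all shared and 7.71% of all windows, or the full cAMP response element TGACGTCA, found in 2.05%, 3.16% and 1.85%. With 59 windows, a count of 0 has an upper Wilson bound of 6.11%, which only the 7.71% exceeds. Some of the 59 windows overlap one another, as at CTBP1 and CTBP1-DT, so they are not separate counts. In all, 18 motifs were searched, and no motif was tested. A match shows only that these letters are present.

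The control-only regions were narrow. Their widths ran from 215 to 1777 bp with a median of 454 bp, whereas the whole control list had a median of 771 bp and its other peaks 787 bp. The median member stood at the 11.8th percentile of control peak widths. Only 101 members, 7.13%, were wider than the median control peak, 22 were at least 1 kb wide and 150 were under 300 bp. Together they covered 0.692 Mb.

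**Figure D1:**
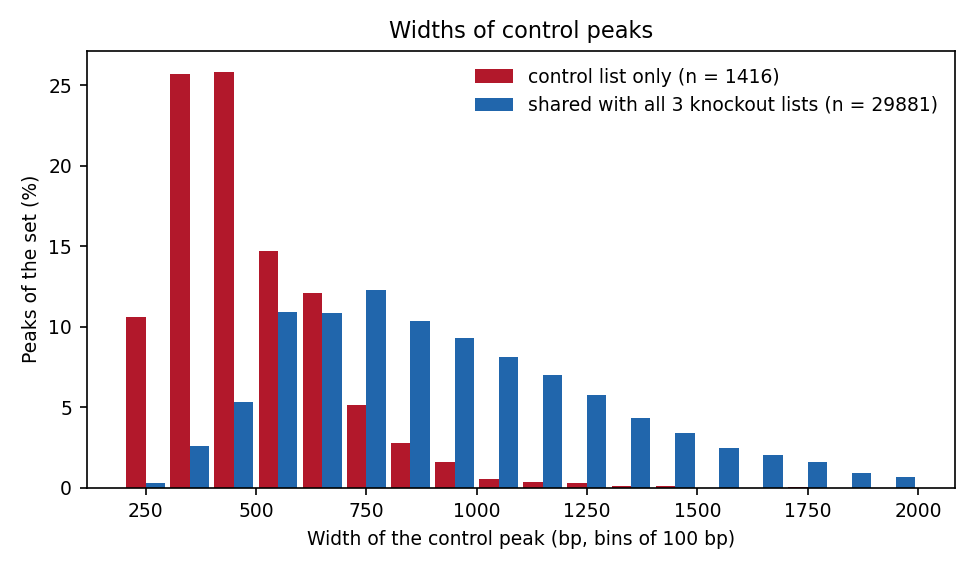
Widths of control peaks in bins of 100 bp, as the percentage of each set, for the 1416 control-only regions (red) and the control peaks that overlap a peak in all 3 knockout lists (blue); peaks wider than the axis are not drawn. The control-only regions centre on a median of 454 bp and thin out before 1 kb, where shared peaks are still common.

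A narrow width was also the rule among peaks held by a single knockout list. The IGF2BP1-only, IGF2BP2-only and IGF2BP3-only regions had median widths of 602, 467 and 485 bp, and regions in all 4 lists 1081 bp. When each list was divided into 4 groups of equal size by its own peak widths, the share held by that list alone fell from the narrowest group to the widest in every list. In the control list it was 10.3%, 3.16%, 0.877% and 0.163%, which is 1004, 310, 86 and 16 peaks. In the IGF2BP1 knockout list it was 18.5%, 8.67%, 5.01% and 1.74%. In the IGF2BP2 knockout list, the longest, it was 39.6%, 20.4%, 10.2% and 2.16%, and in the IGF2BP3 knockout list 18.2%, 8.89%, 3.93% and 0.881%. In each width group the control list had the lowest share of its own.

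Most control-only regions lay at least 1 kb from the nearest knockout peak. Members were chosen for sharing no base with such a peak, and this distance was not measured for another set, so it is a description. The median distance to the nearest peak of any knockout list was 8.2 kb, with quartiles of 3.05 and 18.4 kb. Distances below 1 kb were seen for 133 regions, 9.39%, and 65 lay within 500 bp. At the other end, 99 regions were more than 50 kb and 44 more than 100 kb from any knockout peak, with a maximum of 1.16 Mb. Whether reads map uniquely to these isolated regions was not examined. Taken list by list, the median was 11.1 kb to the IGF2BP1, 9.89 kb to the IGF2BP2 and 14 kb to the IGF2BP3 knockout list. The median was smallest for the longest knockout list and largest for the shortest.

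The 1 bp rule cut through few borderline cases. Just inside it, the region closest to a knockout peak lay in NPAS3, a neuronal transcription factor gene, at chr14:33362791-33363666, and was separated from an IGF2BP1 knockout peak by 17 bp. The next were chr3:160697976-160698418, outside genes, at 29 bp from an IGF2BP1 knockout peak, and chr9:132161279-132161901 in NTNG2, at 82 bp from an IGF2BP3 knockout peak. Just outside the rule, a control peak in ENOX1 at chr13:43364849-43365268 shared 42 bp with an IGF2BP1 knockout peak, chr13:66129582-66129976 shared 77 bp with an IGF2BP3 knockout peak, and chr21:42520975-42521288 in SLC37A1 shared 103 bp with an IGF2BP3 knockout peak. No control peak was covered over 10 bp or less, only 4 members lay within 100 bp of a knockout peak, and 24319 control peaks were covered completely.

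Control-only regions lay mostly inside genes and away from promoters. Of the 1416, 788 (55.6%, interval 53.1 to 58.2%) lay in a protein-coding gene and 441 (31.1%, 28.8 to 33.6%) lay outside every annotated gene. A gene end, meaning either end of a gene of any type, was within 1 kb of 210 regions (14.8%, 13.1 to 16.8%). Of the 1358 regions on sequences with RefSeq start sites, 87 (6.41%, 5.22 to 7.84%) were within 1 kb of a start. The start-site table holds 27305 of the 59716 genes, so starts of unlisted genes were not counted. Start-site shares given here, for each set, are therefore minimum values. Regions in all 4 lists stood apart from this, with 48.3% at a gene end and 39.4% at a start site. Of all 71597 merged regions, 54.3% lay in a protein-coding gene and 31.8% outside genes, so the control-only regions were near these shares. At a gene end and at a start site the shares of all merged regions were higher, at 27% and 19.6%.

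Compared with the regions held by 1 knockout list, the control-only regions were more often genic. The share outside genes was 34.6% for IGF2BP1-only, 41.9% for IGF2BP2-only and 43.1% for IGF2BP3-only regions, against 31.1% for control-only regions. The share in a protein-coding gene was 51.2%, 42.2% and 42.1%, against 55.6%. The control-only regions also lay closer to chromatin that was open in all 4 lists, at a median of 20.9 kb against 33, 37.8 and 33.4 kb. These differences were also seen among narrow regions alone (under 557 bp), where 31.9% of 1004 control-only regions were outside genes (29.1 to 34.8%), against 35.8%, 41.7% and 43%, and the median distance to a region in all 4 lists was 19.7 kb against 33.1, 35.8 and 31.4 kb. For narrow regions in all 4 lists, 43.4% were outside genes. Control peaks that were also in 1 or in 2 knockout lists were close to the control-only regions on these measures, with 34.3% and 32.6% outside genes and medians of 20.9 and 24.8 kb. The lists differ in length, and the part this plays in these shares was not tested.

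The share of control-only regions at start sites differed from that of shared peaks mainly at large widths. Among the narrowest control peaks (215 to 556 bp), 5.22% of the control-only and 8.91% of the peaks shared with all 3 knockouts were at a start site. From 557 to 770 bp the shares were 8.64% and 15.7%, and from 771 to 1077 bp they were 11.9% and 42.4%. Among the widest peaks (1078 to 8038 bp), 68.6% of shared peaks (67.7 to 69.6%) but 1 of 16 control-only regions, 6.25% (1.11 to 28.3%), were at a start site. In the set shared with all 3 knockouts a peak of the widest group was mostly at a listed start site, and in the control-only set it was not. Another of the 16 regions lay at an end of VSTM2L, a gene without a listed start or strand. No control-only region was wider than 1777 bp, so widths within that group were not matched. Low shares were not particular to the control-only set. From the narrowest to the widest group, control peaks in 1 knockout list had 5.31%, 8.18%, 10.1% and 25% at a start site. For control peaks in 2 knockout lists the shares were 5.78%, 10%, 14.8% and 22.5%.

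**Figure D2:**
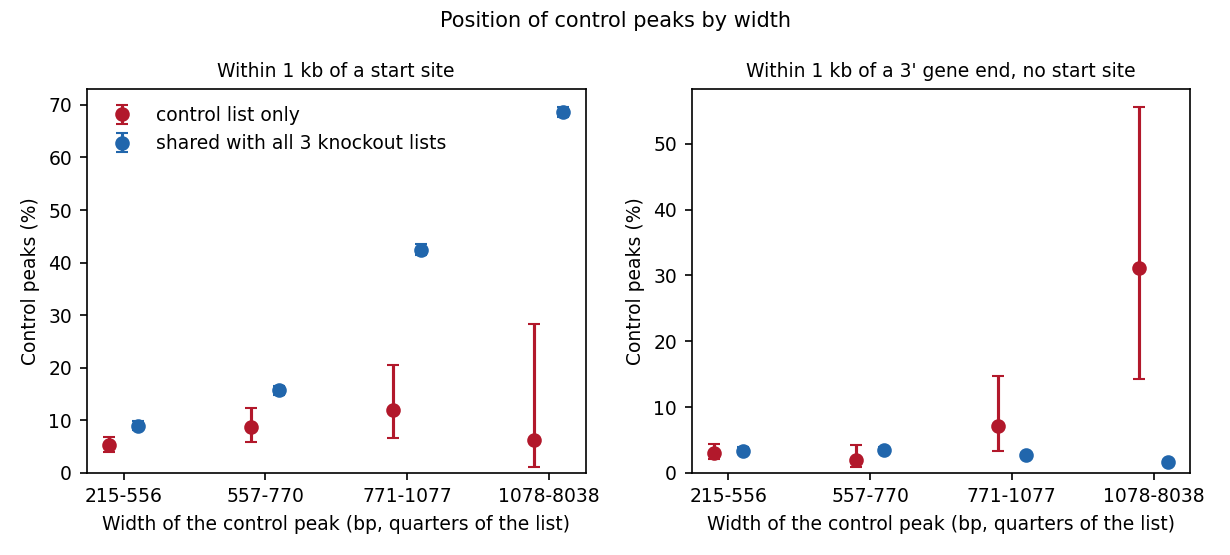
Percentage of control peaks within 1 kb of a start site (left) and within 1 kb of a 3′ gene end but no start site (right), in 4 width groups of the control list (bp); red points are control-only regions, blue points are control peaks shared with all 3 knockout lists, and bars are 95% Wilson intervals. At start sites the shared peaks climb from 8.91% to 68.6% with width while the control-only regions stay between 5.22% and 11.9%, and at 3′ ends the widest control-only regions reach 31.2% against 1.62%.

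Some of the widest control-only regions lay just past the 3′ end of a gene, a pattern noticed after the values were seen. Over all widths, 46 of 1358 control-only regions were within 1 kb of a 3′ end and of no start, 3.39% (2.55 to 4.49%). The share was 2.73% of all merged regions and 2.81% of regions in all 4 lists. It was 2.6%, 2.24% and 2.22% of IGF2BP1-only, IGF2BP2-only and IGF2BP3-only regions, and 3.86% of regions in the control and 1 knockout list. Of the 16 in the widest group, 5 were at such a 3′ end, 31.2% (14.2 to 55.6%). In that group the share was 1.62% (1.38 to 1.9%) of peaks shared with all 3 knockout lists. It was 3.57% of control peaks in 1 knockout list and 3.05% of those in 2. Widths within the group were not matched, as no control-only region exceeded 1777 bp while 535 shared peaks were 2000 bp or wider. In the narrower groups the control-only regions and the peaks shared with all 3 knockout lists differed less, with 3.03% against 3.29%, 1.99% against 3.53% and 7.14% against 2.69%. All 5 of the widest group lay downstream of the gene rather than across its end, whereas 43.5% of the 147 shared peaks of this kind did. With the 771 to 1077 bp group added, the share at a 3′ end was 11% of 100 regions (6.25 to 18.6%), and 9 of these 11 lay downstream, 81.8%, against 46% of 372 shared peaks. The 31.2% rests on 16 regions and on the full rule. Without the IGF2BP1, IGF2BP2 or IGF2BP3 knockout list in the rule it was 11.4% of 44, 20.7% of 29 or 19.4% of 31 regions, and with 3′ ends counted within 250 bp it was 12.5%.

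The genes beside these 5 regions have varied roles. The widest of all control-only regions, 1777 bp at chr6:34415395-34417171, began 283 bp past the 3′ end of RPS10, which encodes a protein of the small ribosomal subunit, and lay within the RPS10-NUDT3 readthrough gene. A 1408 bp region at chr1:11052967-11054374 began 215 bp past SRM, which encodes spermidine synthase. A 1298 bp region at chrX:73818860-73820157, inside the antisense RNA gene TSIX, began 499 bp past XIST. A 1120 bp region at chr7:26187305-26188424 began 168 bp past NFE2L3, a basic leucine zipper transcription factor gene. A 1119 bp region at chr2:177224407-177225525 began 448 bp past HNRNPA3, which encodes an RNA-binding protein of the nucleus. The nearest knockout peak was 8.38 kb away at RPS10, 4.96 kb at SRM, 24.5 kb at XIST, 12 kb at NFE2L3 and 11 kb at HNRNPA3.

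In RPS10, SRM, NFE2L3 and HNRNPA3 the control list held 2 peaks and each knockout list 1, over the gene and 1 kb on either side. At RPS10 the start-site peak was 774 bp wide in the control, 1021 bp without IGF2BP1, 763 bp without IGF2BP2 and 882 bp without IGF2BP3. At SRM it was 1152 bp in the control and 1179, 1081 and 1063 bp in the knockouts, and at HNRNPA3 1177 bp against 1204, 1268 and 1190 bp. At RPS10, SRM and HNRNPA3 the start-site peak was therefore present in all 4 lists, and the downstream peak in the control list alone. Other wide regions past a 3′ end lay at ERFE (993 bp), the erythroferrone gene, at YWHAE (869 bp), a 14-3-3 protein gene, and at TRA2B (771 bp), a splicing regulator. A 724 bp region lay past the 3′ ends of both DENND4C and RPS6, which face each other.

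**Figure D3:**
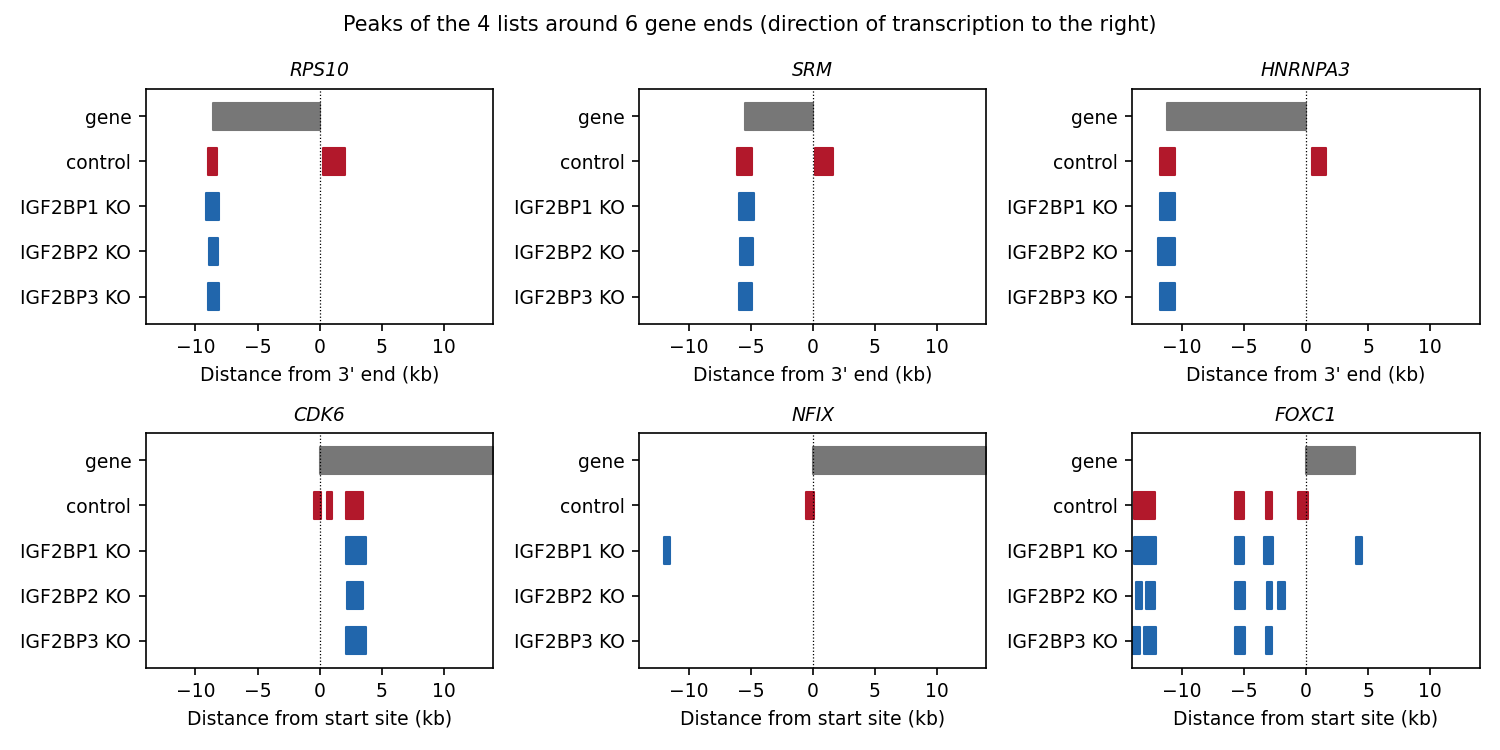
Positions of peaks in the 4 lists around 3 gene 3′ ends (RPS10, SRM, HNRNPA3) and 3 start sites (CDK6, NFIX, FOXC1), as distance in kb with transcription running to the right; grey bars are genes, red bars control peaks and blue bars knockout (KO) peaks. The upper genes keep their start-site peak in every list and have the downstream peak in the control list alone, and in the lower genes the peak over the start site is in the control list alone.

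The other control-only regions of 1110 to 1321 bp that were at least 1 kb from knockout peaks had no such common position. The 1 at a listed start site, 1321 bp at chr19:41927828-41929148, covered the start of ERFL, an ETS-family gene. It also covered a RefSeq start site within ARHGEF1, a guanine nucleotide exchange factor gene, near the 3′ end of that gene. A region of 1318 bp lay in DHRSX, 1 of 1287 bp in TENM2, which encodes a teneurin adhesion protein, and 1 of 1234 bp in LGR4, which encodes an R-spondin receptor. The TENM2 region was the most isolated of the 12 widest, 85.1 kb from the nearest knockout peak. The remaining 3 were 1212 bp at USP17L6P, a pseudogene of a tandemly repeated family, 1190 bp in SPATA31H1, 41.1 kb from the nearest knockout peak, and 1110 bp at an end of VSTM2L.

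At the level of genes, 121 of 20050 protein-coding genes, 0.603%, had a control-only region within 1 kb of an end. In 64 genes, 0.319%, all peaks at the ends came from the control list. With each list limited to its widest peaks, as many as the control list holds, this count was 169. The sets shared 50 genes, and the other 71 of the 121 kept another peak at an end in at least 1 knockout list. Of the 121 genes, 43 had the control-only region at the 5′ end, 40 at the 3′ end and 8 at both, with the strand unknown for 30. Among the 50 genes without a knockout peak at an end, it was at the 5′ end in 23, at the 3′ end in 3 and at both in 3. The strand was unknown for 21 of them. Among genes of known strand, a control-only region at a 3′ end thus mostly lay in a gene that kept a peak at an end in a knockout list.

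Several of the 50 genes encode regulators of transcription or growth. CDK6, a kinase that drives cells out of G1, had 2 control-only regions at its start, of 579 bp over the start site and of 401 bp within the first kilobase of the gene. A further control peak of 1429 bp began 2.11 kb into the gene and had counterparts 1598 bp wide without IGF2BP1, 1336 bp without IGF2BP2 and 1589 bp without IGF2BP3. The whole gene held 6 control peaks and 7, 7 and 2 knockout peaks, so the lists differed at the start site while CDK6 stayed marked in each of them.

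NFIX, a nuclear factor I transcription factor gene, had a 621 bp control-only region over its start, 11 kb from the nearest knockout peak. Elsewhere in NFIX the knockout lists held more peaks than the control list, 7, 9 and 5 against 4 including the start-site peak. GSE1, a coiled-coil protein gene, had an 817 bp control-only region near its start and 27 control peaks in all, against 35, 35 and 25. CTBP1, which encodes a transcriptional corepressor, had an 833 bp region inside its 5′ end, 0.397 kb from a knockout peak. The region covered a start site of CTBP1 and a start site of CTBP1-DT. CTBP1 had 2 control peaks in all against 1, 0 and 1. MSH4, a meiotic mismatch repair gene, had an 850 bp region over its start, and 4 control peaks against 3, 4 and 3.

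In 21 of the 50 genes no knockout list had any peak in the gene or the 1 kb around it. ZNF682, a zinc finger gene, had its only peak, 645 bp wide, over the start in the control list. The same held for PLA2G12B (621 bp), a secreted phospholipase gene, for CTSZ (394 bp), which encodes the protease cathepsin Z, and for the histone gene H4C12 (348 bp). NTSR1 (616 bp), a neurotensin receptor gene, RAB26 (511 bp), which encodes a vesicle GTPase, and NUPR1 (630 bp), a stress-induced nuclear protein gene, also had a single control peak and no knockout peak. UBL4A (327 bp), a factor in the delivery of tail-anchored membrane proteins, and IFITM10 were among the narrowest. These 21 are thus mostly genes with 1 narrow control peak.

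Several of the 21 belong to families of near-identical copies, namely TP53TG3D, TP53TG3B, TP53TG3F, CT45A5 and SPANXB1, the last 2 being cancer-testis genes of the X chromosome. The treatment of reads that map to several copies is not given in the sources used here, so which copy was open is uncertain. The TP53TG3D region, 790 bp, was 136 kb from the nearest knockout peak. Another member, chrM:9721-10050, lay on the mitochondrial genome and accounts for 5 of the 121 genes.

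In the other genes named by width, a knockout peak remained elsewhere in the gene in at least 1 list. ACTL8 (871 bp) and VSTM2L (1110 bp) had 1 control peak each, against 0, 1 and 1 and against 1, 2 and 2 knockout peaks. GOLT1A (775 bp) had 2 control peaks against 1 in each knockout, SBK1 (764 bp) 4 against 4, 4 and 3, and RAB11FIP4 (745 bp), which encodes an effector of Rab11 in endosomal recycling, 4 against 3, 6 and 3. PKP3 (724 bp), which encodes the desmosomal protein plakophilin 3, had 1 control peak against 1, 1 and 0, though its region lay outside the gene, across the 3′ end of SIGIRR and 0.153 kb from a knockout peak. ST6GALNAC6 (714 bp), a sialyltransferase gene, had 2 against 1, 2 and 2, and CDC42BPG (636 bp), a kinase gene, 1 against 0, 1 and 1. MARCHF9 (491 bp), an E3 ubiquitin ligase gene, had 1 against 1, 0 and 0, and HRH2 (426 bp), the histamine H2 receptor gene, 2 against 1, 1 and 1. The count of peaks in these genes differed by at most 2 between any knockout list and the control list.

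Genes of shared function were examined in 19 lists, and control-only regions at their ends were few in each. Among the 27 kidney developmental transcription factors, FOXC1, a forkhead factor of mesenchyme and eye development, was the 1 gene hit. Its 822 bp region covered the start site, and the control peaks of 494 and 732 bp farther upstream had counterparts in all 3 knockouts. FOXC1 is not among the 50 genes because the IGF2BP1 knockout list had a 534 bp peak just past its 3′ end. Of 43 cell cycle genes, CDK6 and MCM7, a subunit of the replicative helicase, were hit, MCM7 past its 3′ end by a 299 bp region that lies in COPS6. Of 20 writers, erasers and readers of N6-methyladenosine, METTL16, a methyltransferase gene, was hit at its 3′ end by a 382 bp region. These hits are 3.7%, 4.65% and 5% of the kidney, cell cycle and N6-methyladenosine lists, next to 0.603% over all protein-coding genes. They rest on 1, 2 and 1 genes, and no list was tested.

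Of 517 zinc finger genes, ZNF682, ZNF296 and ZNF703 were hit, 0.58%, next to 0.603% over all protein-coding genes. Of 86 cytosolic ribosomal protein genes, RPS10 and RPS6 were hit, both at the 3′ end. Of 74 replication-dependent histone genes H4C12 was hit, and of 423 tRNA genes 5, which share 4 regions because 1 region of 604 bp served both TRF-GAA1-2 and TRE-CTC1-6. Over genes of all types, 252 of 59716 were hit. No gene was hit in the lists of innate immune sensors (50), interferon signalling (76), NF-kappaB and cytokine (37), neural (32), blood cell (25), oncofetal (26), chromatin regulator (46), stress response (35), imprinted (29), HOX (39), clustered protocadherin (53) and respiratory chain (94) genes. Since 0.603% of all protein-coding genes were hit, a count of 0 in lists of this length does not set them apart from the rest of the genes.

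The 3 targeted genes contained no control-only region. The nearest member lay 182 kb from IGF2BP1 (275 bp wide), 88.3 kb from IGF2BP2 (the 771 bp region past TRA2B) and 238 kb from IGF2BP3 (310 bp wide). IGF2BP1 had 8 members within 1 Mb, IGF2BP2 had 1 and IGF2BP3 had 3. Peaks remained in each targeted gene in its own knockout, with 2 in IGF2BP1 in both the control and the IGF2BP1 knockout list, 3 and 5 in IGF2BP2, and 3 and 1 in IGF2BP3. Peak positions do not show whether the gene was disrupted.

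Control-only regions were spread over all chromosomes. Chromosome 10 had the highest share of its control peaks among the 23 chromosomes compared, 101 of 1962 or 5.15% (4.25 to 6.22%), and chromosome 18 the lowest, 12 of 587 or 2.04% (1.17 to 3.54%), around 3.61% for all control peaks (3.43 to 3.8%). Among the narrowest control peaks, chromosome 10 had 15.4% and chromosome 18 had 5.45%, against 10.3% of all such peaks, and the highest share there was that of chromosome 22, 15.8%. On chromosome 10, 14.4% of control peaks had no IGF2BP1 knockout peak, 11.6% no IGF2BP2 knockout peak and 16.6% no IGF2BP3 knockout peak, against 10.1%, 8.8% and 18.5% of all control peaks. The highest and the lowest chromosome were picked from the measured shares, and the copy number of the chromosomes in each clone was not measured.

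**Figure D4:**
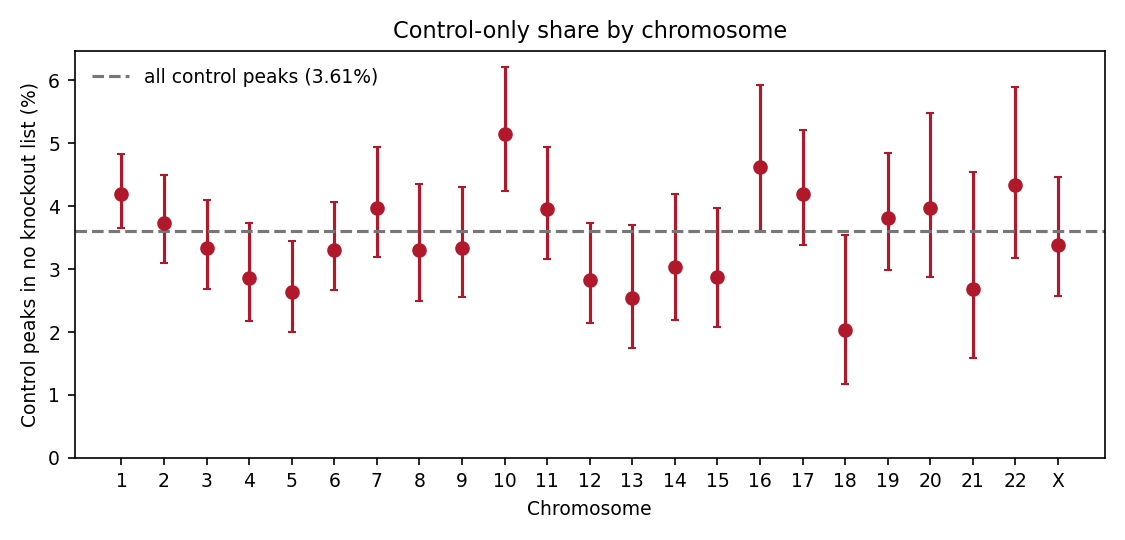
Percentage of the control peaks of each chromosome that overlap no knockout peak, for chromosomes 1 to 22 and X; points are shares, bars are 95% Wilson intervals and the dashed line is the 3.61% of all control peaks. Chromosome 10 stands highest at 5.15% and chromosome 18 lowest at 2.04%.

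Within chromosomes the regions were mostly scattered. In windows of 1 Mb, 720 windows held 1 member, 202 held 2 and 65 held 3, and the highest count was 8. That window, chr1 from 124 to 125 Mb, has no protein-coding gene within 2587 kb of its members, which were 229 to 438 bp wide, and held 37 control peaks against 28, 62 and 35 in the IGF2BP1, IGF2BP2 and IGF2BP3 knockouts. Whether reads map uniquely to this window was not examined. The next, chr17 from 48 to 49 Mb, held 7 members in or near NFE2L1, CBX1, SKAP1, HOXB9, LINC02086 and TTLL6, with 52 control peaks against 42, 58 and 48. The window at chr11 from 1 to 2 Mb held 6, in or near MUC2, BRSK2, MOB2 and IFITM10, with 34 control peaks against 29, 33 and 35. At least 1 knockout list had more peaks than the control list in each of these 3 windows.

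By gene, 744 protein-coding genes, 3.71%, contained a control-only region. MLLT3, which encodes a subunit of the super elongation complex, held 4, the highest count, and DAB1, ERC2, GSE1 and TBC1D5 were among those with 3 each; these were picked after the counts were seen. MLLT3 had 10 control peaks against 9, 12 and 8 in the IGF2BP1, IGF2BP2 and IGF2BP3 knockouts. DAB1, an adaptor in reelin signalling, had 14 against 15, 23 and 16, and TBC1D5, a regulator of endosomal sorting, 10 against 12, 13 and 8. ERC2, which encodes a presynaptic scaffold protein, had 19 against 21, 19 and 10. These genes are long, from 281 kb for MLLT3 to 1552 kb for DAB1, and in each of them the control-only regions were a minority of the control peaks.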

How the data were processed

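The authors deposited 1 peak list per group, each giving chromosome, start and end and no other value, so the unit is position. Per the submitters' processing notes, fastp 0.24.1, BWA 0.7.17, MACS2 3.0.0 and bedtools were used with GRCh38. The order of use, the settings and threshold, any correction for the transposase offset and how libraries were pooled into a list are not given in the sources used here. A more permissive threshold or a deeper library gives a longer list, which moves every count of regions held by 1 list. Depth is unknown.

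Positions were converted to count from 1, and overlaps, distances and shares were computed with Python 3.11.15, numpy 2.4.6, pandas 2.3.3 and scipy 1.17.1, after checking the interval code on simulated peaks. Genes (59716) and start sites came from RefSeq tables of GRCh38.p14. The gene table has no strand or exons, so 27305 genes took their strand from the promoter table. Its windows exclude chromosome 8 and also lack genes on other chromosomes. A gene without a window there has no start site or 3′ end in the shares above. Exonic or intronic position was not determined. In 2828 of 2828 overlapping window pairs on opposite strands, the sequences were reverse complements of each other.

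No test was made, since each group is 1 list. The members and the 19 gene lists were chosen with earlier results of these data known. Text names the 12 widest members at least 1 kb from knockout peaks, the 15 protein-coding genes with the widest control-only region and no knockout peak within 1 kb of an end, listed genes with a region at an end, the 3 nearest cases on either side of the overlap rule, the 3 densest windows, the extreme chromosomes and the targeted genes. Other named genes (among them NFIX, HRH2, MARCHF9, CTSZ, MLLT3 and those past 3′ ends) were chosen after their values were seen. A gene among those with several control-only regions is not reported here.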

Additional observations from a re-analysis of the deposited data

How the results depend on the processing

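No list carries values per library, so no difference could be set against replicate spread and no library could be left out. No paired analysis was possible because each group has a single list and no column carries a replicate number. The number of control-only regions, 1416, moved to 2318 with every peak trimmed to 200 bp, to 4569 with equal numbers of the widest peaks of each list, to 2359 without the IGF2BP1 knockout list and to 2574 without the IGF2BP2 knockout list. It was 1350, 1546, 1403 and 1805 with a 500 bp gap counted as shared, with 50% cover needed, on chromosomes 1 to 22 and X, and without the IGF2BP3 knockout list. The share at a gene end, 14.8%, was 21.6% with trimmed peaks, 8.9% within 250 bp, 21.8% within 2 kb and 7.27% for protein-coding genes, and 13.8 to 15.5% under the other 4 alternatives. The share outside genes, 31.1%, was 35.7% with lists cut to their widest peaks. The genes with end peaks in the control list alone, 64, became 169 with the widest peaks. Added after the data were seen, start sites within 250 bp or 2 kb gave 4.49% and 9.65% in place of 6.41%. The median width was 542 bp with trimmed peaks and 470 bp with 50% cover. A wider or narrower distance from a gene end or start changes the share by construction. The cause of the other shifts was not tested.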

Other observations

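Control-only regions inside genes of the 19 lists, away from their ends, were found at several regulators and receptors. TRAF3, an adaptor of innate immune signalling, held an 841 bp region at chr14:102819198-102820038, and EPSTI1, an interferon-stimulated gene, held a 759 bp region at chr13:42970721-42971479. Among receptor genes, INSR, the insulin receptor gene, held a region of 633 bp, IGF1R, the receptor gene for insulin-like growth factors, 1 of 316 bp, and CSF1R, a macrophage growth factor receptor gene, 1 of 331 bp. Of 46 chromatin regulators, 4 held a region, namely the SWI/SNF subunit gene ARID1B (408 bp), the heterochromatin protein gene CBX1 (574 bp), the DNA methyltransferase gene DNMT3A (341 bp) and the histone methyltransferase gene KMT2C (397 bp). Over all protein-coding genes, 3.71% held a control-only region, and long genes have more room for one.

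MYB, a transcription factor gene of blood progenitors, held a 370 bp region and FTO, an RNA demethylase gene, 1 of 526 bp. HOXC4 held 2 regions, of 498 and 577 bp, the only listed HOX gene with any. MECOM, a kidney and blood transcription factor gene, held 1 of 659 bp, CDKN2A, which encodes inhibitors of the cell cycle, 1 of 334 bp, and the ribosomal protein gene RPS24 1 of 560 bp. Of the 517 zinc finger genes, 8 held a region, at an end or inside, the widest at ZNF652 (710 bp).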
